A study of Arabidopsis thaliana with 4 samples.

Results

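The pericentromeres are the heterochromatic stretches beside each centromere, and the genes described here are those whose start lies in a window of 3 Mb around the centromere of each of the 5 chromosomes. The windows span 13.6 to 16.6 Mb on chromosome 1, 2.1 to 5.1 Mb on chromosome 2, 12.1 to 15.1 Mb on chromosome 3, 2.45 to 5.45 Mb on chromosome 4 and 10.2 to 13.2 Mb on chromosome 5 (TAIR10). They held 215 of the 13311 genes in the deposited gene tables, after 10 further genes in the windows were set aside. By chromosome, 33, 68, 26, 55 and 33 genes were members. Inflorescences of Arabidopsis thaliana were taken for mRNA sequencing when the plants were 5 weeks old, with 2 libraries of Col-0, the wild type reference accession, and 2 of ndx1-4, a mutant in the Col-0 background with a T-DNA insertion in NDX. The mutant is a single insertion allele, and the study describes the libraries as independent biological replicates, each made from RNA pooled over the inflorescences of several plants. Of the members, 144 had counts in all 4 libraries, 37 in the Col-0 libraries only and 34 in the ndx1-4 libraries only, because each table lists only the genes that passed its own comparison.

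Pericentromeric DNA of Arabidopsis is poor in genes and rich in transposons and their remnants. It is packed into heterochromatin, which carries dense DNA methylation and histone H3 lysine 9 methylation. Genes inside it often sit between silenced elements, and some hold copies of sequences from elsewhere, such as organelle DNA. NDX encodes a homeodomain protein known for its part in the silencing of an antisense transcript at the flowering gene FLC.

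The libraries were first checked against their labels. The 5 floral organ markers used for the check (AG, AP1, AP3, PI and SEP3) had between 667 and 2654 counts in the libraries. NDX itself had 430 and 525 counts in Col-0 plants against 73 and 108 in the mutant. The gene tables held between 10726926 and 13814929 estimated counts per library. Below, a normalised count is a count divided by the scaling of its library relative to Col-0 replicate 1.

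The windows contributed fewer genes to the tables than the rest of the genome. Of 3477 nuclear genes annotated in the windows, 6.18% were in a table, against 34.9% of the 37899 genes on all nuclear chromosomes and 17.1% of the 2776 in the flanks of 1 Mb beside the windows. By type of gene, 2410 of the annotated genes of the windows were pseudogenes, and 0 of these were in a table. Over all nuclear chromosomes 1 of 4843 pseudogenes was in a table. The study counted reads against the sequences of protein-coding and noncoding genes. Among protein-coding genes, 206 of 762 in the windows were in a table (27.0%), against 34.1% in the flanks and 47.0% over all nuclear chromosomes. Among genes annotated as noncoding RNA, 9 of 305 were (2.95%), against 5.92% over all nuclear chromosomes. A gene can be missing because it was outside the sequences counted, was not expressed or did not differ in the comparison a table lists. These reasons cannot be told apart here.

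The listed members had a slightly lower median level than all listed genes in Col-0, a lower one in ndx1-4, and were more often at 0. In Col-0 flowers the median level of the 179 members in the Col-0 tissue table was 12.7 FPKM, with quartiles of 2.54 and 38.4, while the 11173 genes of that table had a median of 14.1 and quartiles of 3.55 and 37.8. In the flanks the median was 12.8 FPKM in Col-0 flowers and 13.5 FPKM in ndx1-4 flowers. In ndx1-4 flowers the 175 members of that tissue table had a median of 10.1 FPKM, with quartiles of 2.01 and 40.8, against a median of 14.2 and quartiles of 3.17 and 37.8 for its 11050 genes. The 30 of them in the mitochondrial block described below had a median of 2.77, and the other 145 had 13.5. In total 18 members (10.1%) were at 100 FPKM or more, against 9.94% of the table. At the low end, 12 members were listed at 0 in both Col-0 libraries (6.70%, against 3.20%), 13 in both ndx1-4 libraries (7.43%, against 3.57%), and 9 of the 144 members with 4 libraries were at 0 in each of them. The flanks were also above the whole tables in this, with 4.71% of their listed genes at 0 in Col-0 and 6.78% in ndx1-4.

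Among the 179 members in the Col-0 tissue table, AT3G06355 had the highest level. This noncoding RNA gene of chromosome 3 (14199575 to 14200076) lies beside the 18S rRNA gene AT3G41768 and shares 164 bases with the 5.8S rRNA gene AT3G41979. The member AT3G41768 has no Col-0 value and was not ranked. In ndx1-4 flowers it had 1321.6 and 1526.2 FPKM, against 1526.1 and 1564.7 for AT3G06355. In the Col-0 libraries AT3G06355 stood at 1327.5 and 931.7 FPKM (mean 1129.6 ± 279.9, SD, n = 2). Next came PSBQ-2, a subunit of the oxygen-evolving complex of photosystem II, at 761 ± 34.7 FPKM (SD, n = 2). RP1, which encodes ribosomal protein L3, was at 742 ± 39.8 FPKM (SD, n = 2). The fourth was ERD5, the proline dehydrogenase of mitochondria, at 589 ± 113 FPKM (SD, n = 2), and the fifth was the polyubiquitin gene UBQ10, at 582 ± 33.0 FPKM (SD, n = 2). The windows thus held genes of photosynthesis, translation and protein turnover at high levels, and neighbours in this order did not differ beyond their spread from PSBQ-2 to RP1 and from ERD5 to UBQ10.

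Between genotypes, no tested member passed the threshold in edgeR, and the median fold change of the members was close to that of all genes. The quasi-likelihood test of edgeR could be applied to 122 members listed in both tissue tables whose mean reached 10 counts, out of 141 in both tables. These tables hold the genes that differed between flowers and seedlings within a genotype. The test left out AT2G11405, HCS2 and AT2G05995, 3 members of the authors' genotype list described below, which were not in both tissue tables. At a Benjamini-Hochberg adjusted p below 0.01, edgeR called 0 of 122 members (0.0877% of the 7981 genes tested) and at 0.05 it also called 0 (0.376% of all). DESeq2 called 3 at 0.01 (2.49% of all), namely TLP5, VIP1 and AT5G34871, and edgeR with the replicate number as a block called 5 (3.52% of all), namely NIA2, VIP1, PRK2A, AT5G33370 and AT5G34871. At an unadjusted p below 0.05 in edgeR, 14 members were higher in ndx1-4 (10.6% of all genes tested were) and 12 were lower (8.7% of all), which is 11.5% and 9.84% of the members. Without Col-0 replicate 2 this count of 26 fell to 12, with 5 higher and 7 lower. The median log2 fold change was 0.02 over the members, with quartiles of -0.17 and 0.23, and 0.01 over all genes tested, with quartiles of -0.18 and 0.20. Both mutant libraries lay above both Col-0 libraries for 39 members (27.9% of all genes) and below them for 28 (25.6% of all). A change of at least 2-fold was seen in 9 members (7.38%), against 5.12% of all genes tested.

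**Figure D1:**
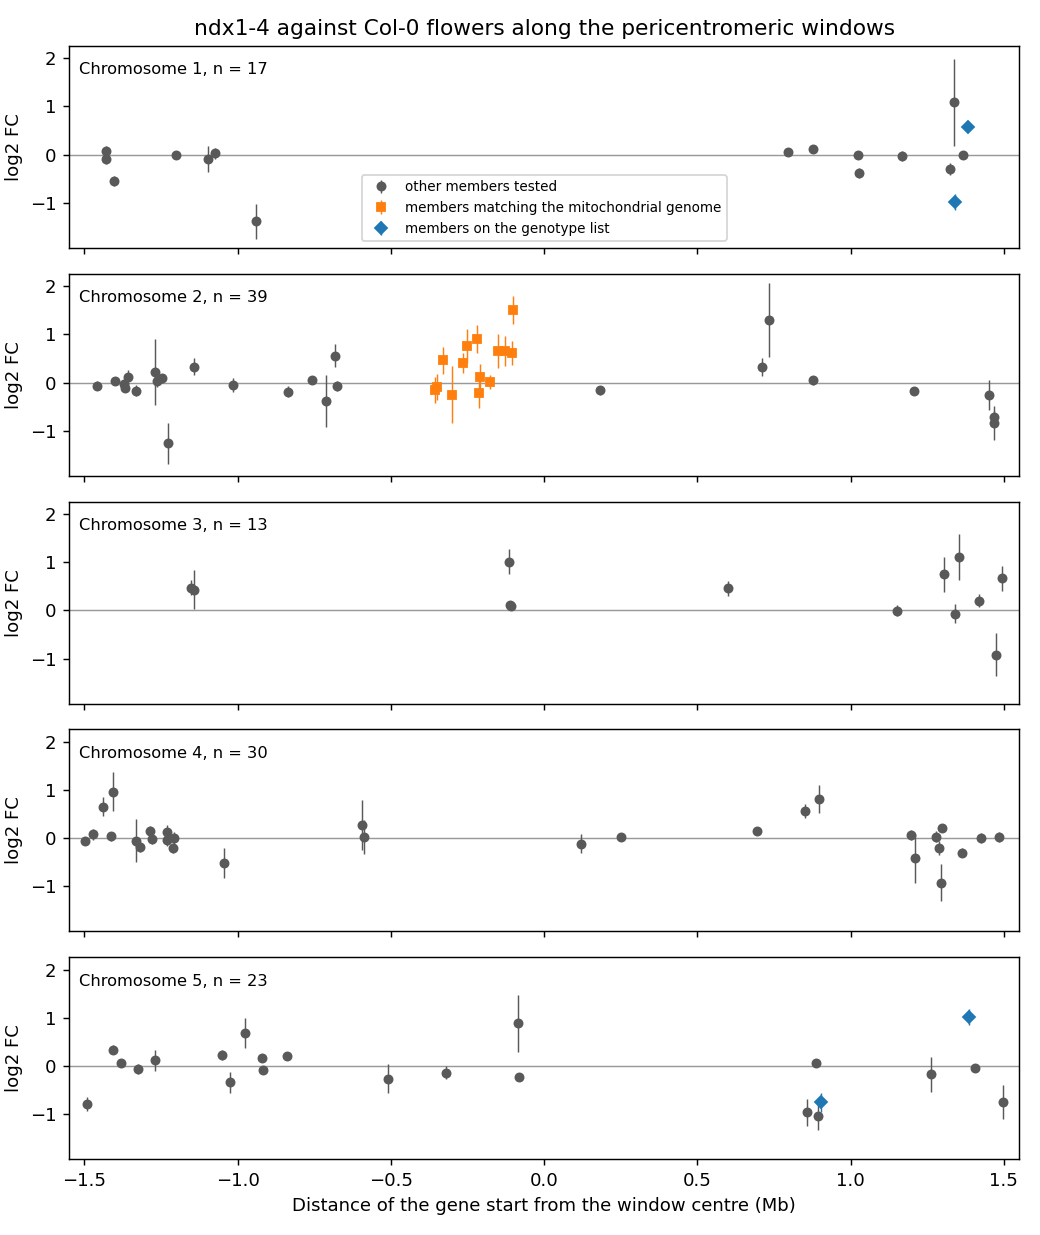
Log2 fold change of ndx1-4 over Col-0 flowers (edgeR, bars are the SE) for the 122 tested members against the distance of the gene start from the centre of its window in Mb, 1 panel per chromosome. Most members lie near 0 and toward the window edges, and the orange squares on chromosome 2, which match the mitochondrial genome, lie between -0.26 and 1.50.

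Position in the window was described in the same way. The 23 tested members within 0.5 Mb of a window's centre had a median log2 fold change of 0.10, the 26 between 0.5 and 1 Mb had 0.06, and the 73 beyond 1 Mb had -0.01. Of the 23 nearest the centre, 14 belong to a block of chromosome 2 that matches the mitochondrial genome and is described below, and the other 9 had a median of 0.02. Without that block the median of chromosome 2, given next with it, was -0.04 (n = 25). In the flanks of 1 Mb the median of 282 tested genes was 0.02, with 25 higher and 24 lower at an unadjusted p below 0.05. The tested genes just inside the 10 window borders had log2 fold changes between -0.79 and 0.66 (median -0.06), and those just outside between -1.22 and 0.43 (median -0.16). By chromosome the medians were -0.01 (n = 17), 0.02 (n = 39), 0.43 (n = 13), 0.02 (n = 30) and -0.06 (n = 23) from chromosome 1 to 5. At an unadjusted p below 0.05, where 10.6% of all genes were higher and 8.7% lower, chromosome 1 had 1 member higher and 4 lower, chromosome 2 had 2 and 2, chromosome 3 had 4 and 0, chromosome 4 had 4 and 1, and chromosome 5 had 3 and 5. The 4 of chromosome 3 were AT3G06355, ERD5, AT3G32920 and AT3G43120, named after their values were seen, and no test compared the chromosomes.

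The genotype list deposited by the authors, which holds the genes that passed their test of ndx1-4 against Col-0 flowers, contained 7 members. This is 3.26% of the 215 members, against 3.11% of the 13220 nuclear genes in any table. It is 0.201% of the genes annotated in the windows, which include 2410 pseudogenes, against 1.08% over all nuclear chromosomes. Among annotated protein-coding genes it was 5 of 762 in the windows (0.656%), against 1.45% over all nuclear chromosomes. Among genes annotated as noncoding RNA it was 2 of 305 (0.656%), against 0.214%. Since the list was made on these same libraries, the values below describe the listed members and do not test them again. Of the 7, 4 were higher and 3 lower in ndx1-4, and the genotypes did not overlap for any of them.

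The member with the largest ratio was AT2G11405, an uncharacterised protein-coding gene with a single exon on the plus strand of chromosome 2 (4543175 to 4543522). It had 0 and 1 counts in Col-0 plants against 37 and 39 in the mutant. With 1 count in all in Col-0, the ratio of normalised counts was 69.0 with an exact 95% interval of 12.01 to 2759, which covers counting error only. The gene was thus near absence in both Col-0 libraries and present at a low level in both mutant libraries. HCS2 (AT1G37150), on the minus strand of chromosome 1 (14174798 to 14178034), is annotated as a holocarboxylase synthetase, a class of enzyme that attaches biotin to carboxylases. It had 61 and 76 counts in Col-0 plants against 174 and 270 in the mutant, or 62.1 ± 1.55 and 180.9 ± 35.7 normalised counts (SD, n = 2 each), a fitted 2.91-fold difference.

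AT5G34871, annotated as noncoding RNA on the plus strand of chromosome 5 (13085037 to 13086565), gave 472 and 502 counts in Col-0 plants against 1148 and 1006 in the mutant. Its normalised level was 445 ± 38.6 in Col-0 and 897 ± 183 in ndx1-4 (SD, n = 2 each), a log2 difference of 1.01 ± 0.17 (SE). The p for it, adjusted after Benjamini-Hochberg, was 0.101 in edgeR and 0.000165 in DESeq2. VIP1 (AT1G43700), a bZIP transcription factor first known as a plant partner of the VirE2 protein of Agrobacterium, lies on the plus strand of chromosome 1 (16484231 to 16486327). It had 1087 and 1284 counts in Col-0 plants against 1741 and 2175 in the mutant. Its levels were close between replicates, at 1077 ± 13.7 and 1609 ± 73.1 normalised counts (SD, n = 2 each), and it had the lowest p of any tested member (log2 fold change 0.58 ± 0.08, edgeR unadjusted p = 0.000636, adjusted p = 0.0773). The 3' end of VIP1 shares 98 bases with EMB1075 on the other strand, and the counting is not stated to use strand.

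Among the lower genes, AT2G05995, a noncoding RNA gene on the plus strand of chromosome 2 (2325776 to 2326876), gave 72 and 61 counts in Col-0 plants against 16 and 14 in the mutant. Its normalised level was 61.4 ± 15.0 in Col-0 and 12.5 ± 2.56 in ndx1-4 (SD, n = 2 each), a 4.89-fold lower level in the fit. TLP5 (AT1G43640), a member of the tubby-like family, lies on the minus strand of chromosome 1 (16439367 to 16441941). It had 302 and 320 counts in Col-0 plants against 147 and 204 in the mutant, a log2 difference of -0.98 ± 0.16 (SE), for which the adjusted p was 0.104 in edgeR and 0.00485 in DESeq2. AT5G33370 encodes a GDSL lipase of the family that polymerises cutin and lies on the minus strand of chromosome 5 (12602468 to 12604832). It had 2749 and 4868 counts in Col-0 plants against 2081 and 2834 in the mutant, and after scaling the Col-0 libraries lay further from each other than the lower of them lay from the mutant. Its log2 fold change was -0.76 ± 0.20 (SE), with an edgeR adjusted p of 0.171.

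**Figure D2:**
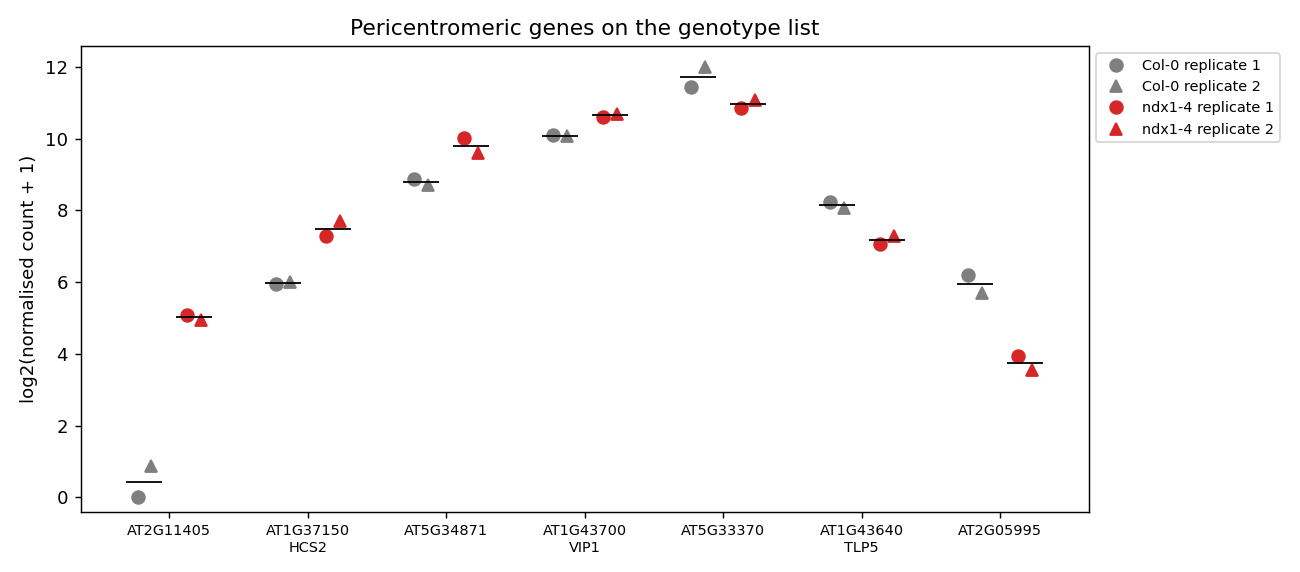
Normalised counts, as log2(normalised count + 1), of the 7 pericentromeric genes on the genotype list in each Col-0 library (grey) and ndx1-4 library (red), with the mean of each genotype as a black line. AT2G11405 has 0 and 1 counts in the wild type against 37 and 39 in the mutant, AT2G05995 lies lower in both mutant libraries, and the genotypes do not overlap for any of the 7 genes.

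The 250 bases before the annotated start are shown for the 3 listed members with the largest ratios in either direction. They were read from TAIR10.1 on the strand of each gene, and capitals mark matches to TATAAA on either strand, the only motif of those searched that these windows held. The windows are chr2:4542925-4543174 (plus strand) for AT2G11405, chr2:2325526-2325775 (plus strand) for AT2G05995 and chr1:14178035-14178284 (minus strand) for AT1G37150.
AT2G11405: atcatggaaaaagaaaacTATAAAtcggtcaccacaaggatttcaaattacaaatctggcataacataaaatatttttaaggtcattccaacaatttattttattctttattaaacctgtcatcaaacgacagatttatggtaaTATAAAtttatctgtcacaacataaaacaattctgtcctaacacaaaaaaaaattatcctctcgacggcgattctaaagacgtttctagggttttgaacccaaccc
AT2G05995: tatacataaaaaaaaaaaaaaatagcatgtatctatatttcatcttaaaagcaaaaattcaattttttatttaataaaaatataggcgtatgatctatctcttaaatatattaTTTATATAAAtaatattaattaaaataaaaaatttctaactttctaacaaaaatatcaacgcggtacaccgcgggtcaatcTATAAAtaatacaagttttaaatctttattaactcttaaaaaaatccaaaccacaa
AT1G37150: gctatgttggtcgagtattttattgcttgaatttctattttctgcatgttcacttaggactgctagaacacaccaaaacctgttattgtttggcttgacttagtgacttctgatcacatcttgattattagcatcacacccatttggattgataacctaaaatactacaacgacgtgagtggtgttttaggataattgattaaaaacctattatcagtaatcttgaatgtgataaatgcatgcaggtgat

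The bases A and T made up 69.6% of the window of AT2G11405, 80.8% of that of AT2G05995 and 65.2% of that of AT1G37150. TATAAA was found from -56 to -51, counted from the start, in AT2G05995 and, further upstream, as overlapping matches on both strands. In AT2G11405 its nearest match ran from -106 to -101, counted from the start, and AT1G37150 held none. Among windows of the same length, 54.0% of the 215 members held TATAAA on either strand. The share was 48.1% of the 13219 genes in any table and 46.1% of the 33056 annotated genes other than pseudogenes. CACGTG, the core of the G-box, was in 5.58% of member windows, 7.44% of those of genes in any table and 5.86% of all. In the windows of listed members it was only in that of AT5G34871. AAACCCTAA, the telomere-like box found before many genes of ribosomal proteins, was in 1 member window (0.465%). It was in 1.95% of the windows of genes in any table and 2.69% of all.

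AT5G34871 shares its sequence with a listed transposable element of another pericentromere. The element AT3TE60870, of the Gypsy-type family ATGP8, lies on the plus strand of chromosome 3 (14916939 to 14918972) and overlaps the pseudogene AT3G42806. An alignment of 1507 columns joined the gene with the element at 95.6% identity, with 46 mismatches. A stretch of 120 bases, the gapless one with the most differences, is shown to let their similarity be seen, with the bases that differ in capitals. It lies at chr5:13086039-13086158 in the gene and at chr3:14918106-14918225 in the element.
AT5G34871: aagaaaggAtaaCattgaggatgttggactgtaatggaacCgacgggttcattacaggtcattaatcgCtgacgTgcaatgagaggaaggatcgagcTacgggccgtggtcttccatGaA
AT3TE60870: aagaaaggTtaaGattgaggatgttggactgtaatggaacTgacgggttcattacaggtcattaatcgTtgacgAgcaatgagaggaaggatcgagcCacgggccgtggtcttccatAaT

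In the element table AT3TE60870 had 490 and 492 counts in Col-0 plants against 1175 and 1058 in the mutant, nearly the counts that the gene table gave AT5G34871. The element's log2 fold change was 0.99 ± 0.24 (SE), which describes an element that was listed on these same libraries. The 2 tables were counted separately, reads of the 2 loci can be exchanged, and which locus the reads came from was not tested.

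A block of the chromosome 2 window stood apart by its sequence. Between 3240494 and 3498780, 30 of the 68 members of this chromosome matched the mitochondrial genome of TAIR10.1 over nearly all of their exonic length (the lowest share was 99.5%), at 97.6% to 100% identity, and no other member lay in this interval of 258 kb. Such a block is what remains of mitochondrial DNA that was inserted into the nucleus, which chromosome 2 of Col-0 is known for. Among its genes are copies of genes for ATP synthase subunits (AT2G07671 and AT2G07698), cytochrome b (AT2G07727) and mitochondrial ribosomal proteins (AT2G07675 and AT2G07734). As an example of the match, 140 bases of a coding exon of AT2G07662 (chr2:3497655-3497794, minus strand) were found exactly 1 time on chromosome 2, 1 time in the mitochondrial genome and 0 times on the other nuclear chromosomes.
AT2G07662: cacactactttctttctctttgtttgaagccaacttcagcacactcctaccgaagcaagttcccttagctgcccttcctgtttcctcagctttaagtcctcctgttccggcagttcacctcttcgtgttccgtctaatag

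Reads of such genes cannot be assigned to the nuclear or the mitochondrial copy from counts. All 30 were in the ndx1-4 tissue table, and 14 of them were also in the Col-0 tissue table. None was in the Col-0 table alone, while among the 13220 listed nuclear genes the ndx1-4 table alone held 2073 and the Col-0 table alone 2208. Of the 35 genes of the mitochondrial genome in the tables, 11 were in the ndx1-4 table alone and 1 in the Col-0 table alone. The 16 block members of the ndx1-4 table alone had between 21 and 154 counts in the mutant libraries and have no Col-0 value here. Since the tissue tables also depend on seedling samples, these listings do not show a difference between flowers.

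The 14 members of the block with 4 libraries had a median log2 fold change of 0.43, against 0.01 for the other 108 tested members and 0.14 for 23 tested genes of the mitochondrial genome. Of the 14, 8 were higher in ndx1-4 with no overlap between genotypes and 6 overlapped, while 27.9% of all genes were higher and 25.6% lower without overlap. Of the 23 mitochondrial genes, 8 were higher and 5 lower without overlap. The summed normalised counts of the 14 block members were 977 and 865 in Col-0 plants against 1108.2 and 1132 in the mutant. The summed normalised counts of the 23 mitochondrial genes were 12717 and 7336 in Col-0 plants against 7053 and 6677 in the mutant, so Col-0 replicate 1 stood above the other libraries there, and the part of mitochondrial reads in the block's values was not tested. The block members, of which AT2G07627, AT2G07706 and AT2G07718 were picked after their values were seen, were spread from -0.26 for AT2G07627 to 1.50 for AT2G07662. AT2G07662 had 30 and 28 counts in Col-0 plants against 93 and 89 in the mutant (log2 fold change 1.50 ± 0.28, edgeR unadjusted p = 0.00299, adjusted p = 0.115), and was the highest of all tested members. AT2G07706 had 29 and 27 counts in Col-0 plants against 48 and 69 in the mutant (log2 fold change 0.90 ± 0.29, edgeR adjusted p = 0.214). AT2G07718, which had most counts in the block, stood at 242 and 257 in Col-0 plants against 271 and 283 in the mutant, with a log2 fold change of 0.01 ± 0.15. Without the block, 12 members were higher (10.6% of all genes tested were) and 12 lower (8.7% of all) at an unadjusted p below 0.05.

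**Figure D3:**
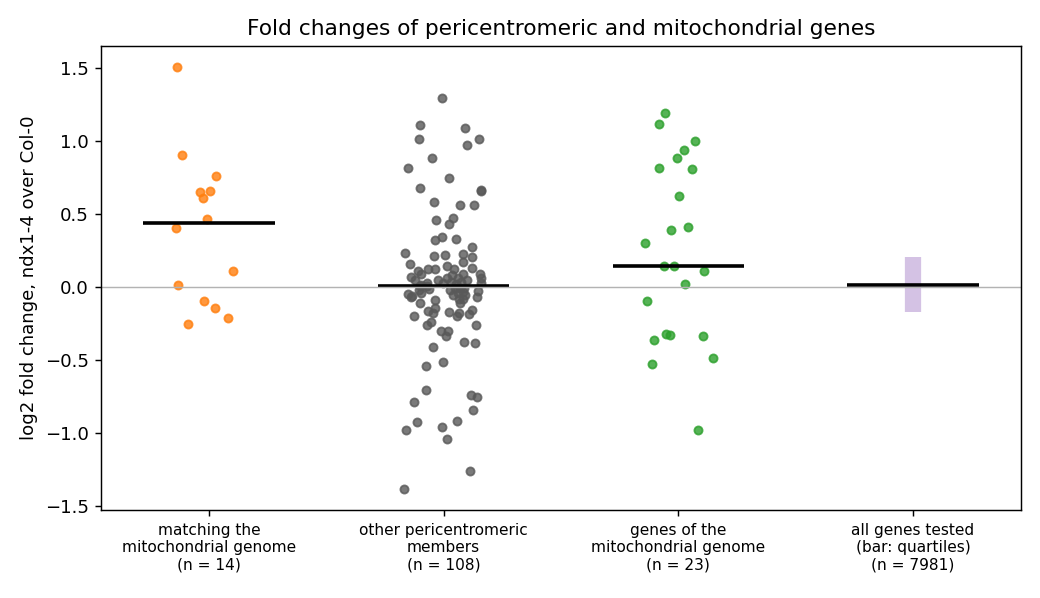
Log2 fold change of ndx1-4 over Col-0 flowers (edgeR) for the 14 tested members that match the mitochondrial genome, the other 108 tested members and 23 genes of the mitochondrial genome, each point a gene and each black line a median. The last column shows the median and quartiles of all 7981 genes tested, and the medians are 0.43, 0.01, 0.14 and 0.01.

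Transposable elements of the same windows were in a table of their own. Of the 45 elements that the authors listed as different between the genotypes, 7 started in the windows, and all 7 were higher in ndx1-4 with no overlap. Since the table holds only elements past the authors' threshold, no background of unlisted elements is available for comparison, and of all 45 elements 33 were higher in the fit. On chromosome 4, VANDAL1 element AT4TE20760 had 0 and 0 counts in Col-0 plants against 25 and 40 in the mutant, at least 8.49-fold higher against a floor of 3 counts per library. Its neighbour AT4TE20765, of ATENSPM6, had 0 and 0 counts in Col-0 plants against 23 and 39 in the mutant, at least 8.08-fold higher, and both lie inside the pseudogene AT4G08090. On chromosome 2 the LINE element AT2TE18965 (ATLINE1_4) had 0 and 0 counts in Col-0 plants against 30 and 39 in the mutant, at least 9.11-fold higher. It lies in the pseudogene AT2G11410 and 2006 bases from AT2G11405, the member with the largest ratio, so 2 neighbouring loci on the plus strand were near 0 in Col-0 and had 30 to 39 counts in each mutant library.

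The other elements had counts in both genotypes. AT4TE19970, a HARBINGER element, had 2 and 3 counts in Col-0 plants against 54 and 84 in the mutant, a ratio of 23.9 with an exact 95% interval of 10.01 to 74.9. Of its 772 bases, 397 lie in an annotated gene that is not a member, 297 of them in exons, and whether its reads came from that gene was not tested. AT2TE12505, of the Gypsy family ATHILA that is concentrated at Arabidopsis centromeres, had 3 and 3 counts in Col-0 plants against 29 and 42 in the mutant, a ratio of 10.3 with an interval of 4.49 to 28.9. The noncoding member AT2G05045 lies 981 bases from it and had 18 and 31 counts in the ndx1-4 libraries, with no Col-0 value here. AT3TE54905, of ATLINEIII, had 103 and 128 counts in Col-0 plants against 212 and 274 in the mutant (log2 fold change 0.87 ± 0.13). All 1710 bases of it lie in the member AT3G32920 and 0 in the exons of that gene, while 1611 lie in exons of the pseudogene AT3G32925. AT3G32920, annotated as a P-loop nucleoside triphosphate hydrolase, had 69 and 83 counts in Col-0 plants against 127 and 215 in the mutant (log2 fold change 1.01 ± 0.25, edgeR unadjusted p = 0.0104, adjusted p = 0.161). The gene and the element in its intron were thus both higher in each mutant library, while its neighbours AT3G32930 and AT3G32940, looked up after their values were seen, had log2 fold changes of 0.11 ± 0.08 and 0.09 ± 0.09.

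**Figure D4:**
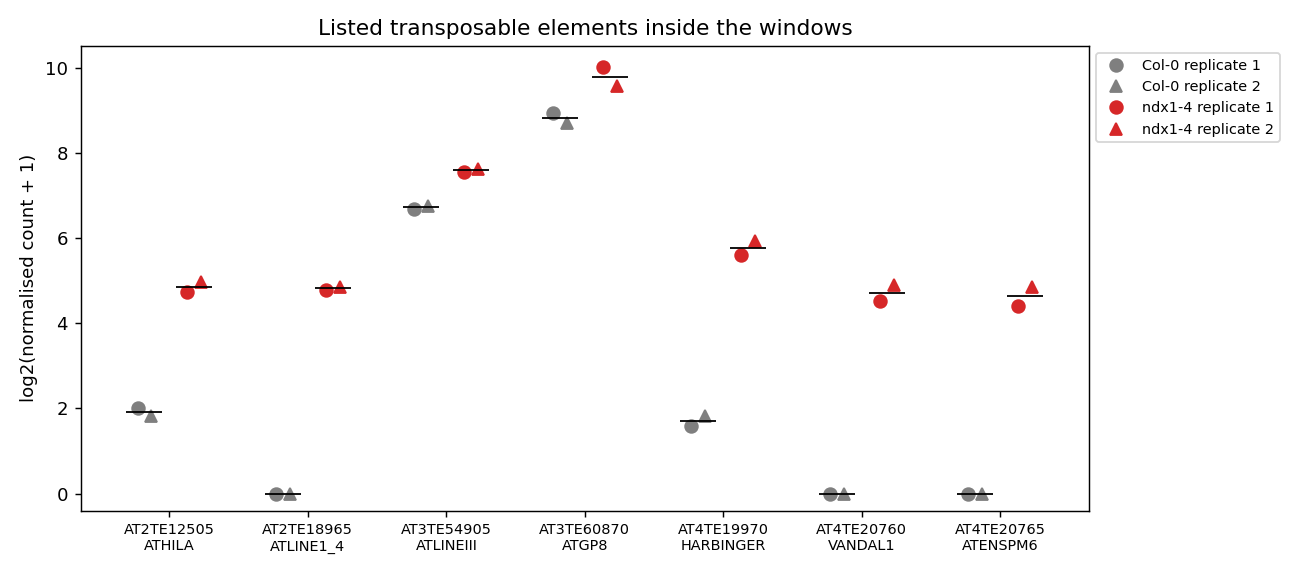
Normalised counts, as log2(normalised count + 1), of the 7 listed transposable elements inside the windows in each Col-0 library (grey) and ndx1-4 library (red), with the mean of each genotype as a black line. The 7 elements are higher in both mutant libraries, and AT2TE18965, AT4TE20760 and AT4TE20765 have 0 counts in Col-0.

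Beyond the list, the members at the ends of the fold change range are described by their counts. The genotypes did not overlap for 55 tested members whose mean reached 50 counts, of which 33 of 98 were higher (33.7%, against 28.9% of the 7057 genes at that count) and 22 lower (22.4%, against 25.4%). PRK3, a receptor-like kinase of the pollen receptor kinase family, had 84 and 58 counts in Col-0 plants against 218 and 117 in the mutant (log2 fold change 1.11 ± 0.48, edgeR unadjusted p = 0.0680). AT4G04980 had 130 and 84 counts in Col-0 plants against 277 and 186 in the mutant (0.97 ± 0.41, edgeR unadjusted p = 0.0650). In both genes the mutant libraries differed from each other by more than the lower of them differed from the higher Col-0 library. Without ndx1-4 replicate 1 the value of PRK3 was 0.44 and that of AT4G04980 was 0.51, and without Col-0 replicate 2 the latter was 0.58. PRK2A, a pollen receptor kinase picked after its values were seen, had 1256 and 1009 counts in Col-0 plants against 2001 and 1698 in the mutant (0.56 ± 0.25, edgeR unadjusted p = 0.0711). Beside these genes, the 4 pollen markers (VGD1, VGDH2, PPME1 and AT5G45880) had log2 fold changes of 0.33 to 0.45, none was at 0 in any library, and their summed normalised counts ranged from 19526 to 20511 in Col-0 and from 21523 to 31475 in ndx1-4. The part of the pollen content in the kinase values was not tested, and in bulk tissue more cells of a type and more RNA per cell cannot be told apart.

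At the low end stood NIA2, the main nitrate reductase of the plant and a neighbour of HCS2 on chromosome 1. It had 216 and 523 counts in Col-0 plants against 128 and 177 in the mutant (log2 fold change -1.38 ± 0.36, edgeR unadjusted p = 0.0119, adjusted p = 0.165), and Col-0 replicate 2 was far above the other 3 libraries. Without that library the value was -0.79. CDR1, an aspartyl protease of disease resistance, had 142 and 179 counts in Col-0 plants against 60 and 114 in the mutant (-1.04 ± 0.28, edgeR adjusted p = 0.173). XGD1, a xylosyltransferase of pectin synthesis, had 71 and 98 counts in Col-0 plants against 52 and 42 in the mutant (-0.96 ± 0.29, edgeR adjusted p = 0.194). UMAMIT17, of a family of amino acid transporters, had 82 and 151 counts in Col-0 plants against 79 and 52 in the mutant (-0.92 ± 0.38, edgeR adjusted p = 0.276), a value that was -0.58 without Col-0 replicate 2 and -0.56 without ndx1-4 replicate 2. XGD1 (start 12558154), CDR1 (12594427) and AT5G33370 (12602468) lie near each other on chromosome 5, but CUE1 (12588741), the phosphoenolpyruvate translocator of plastids, lies between XGD1 and CDR1 and had a log2 fold change of 0.06 ± 0.08.

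Among the 5 members of highest listed FPKM in Col-0 flowers, PSBQ-2, RP1 and UBQ10 had fold changes near 0. ERD5 and AT3G06355 were above the upper quartile of all genes. PSBQ-2 had a log2 fold change of -0.02 ± 0.11, RP1 of -0.02 ± 0.10 and UBQ10 of -0.04 ± 0.11. ERD5 had 21337 and 19703 counts in Col-0 plants against 30371 and 33040 in the mutant (0.47 ± 0.16, edgeR unadjusted p = 0.0329, adjusted p = 0.224). AT3G06355 had 6221 and 5447 counts in Col-0 plants against 8249 and 9644 in the mutant (0.46 ± 0.16, edgeR adjusted p = 0.235). For both, each mutant library was above each Col-0 library after scaling. The 18S rRNA gene AT3G41768, also a member, had 45226 and 60836 counts in ndx1-4 and no Col-0 value here, and ribosomal RNA content was not tested as a part of either value.

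Of the other members below an unadjusted p of 0.05, the lowest p values after VIP1, AT5G34871 and TLP5 belonged to SCPL43 and SHM7, both named after their values were seen. SCPL43, of the serine carboxypeptidase-like family, had 432 and 552 counts in Col-0 plants against 283 and 383 in the mutant (edgeR adjusted p = 0.108). SHM7, of the serine hydroxymethyltransferase family, had 475 and 611 counts in Col-0 plants against 371 and 449 in the mutant (edgeR adjusted p = 0.114). In both genes each mutant library was below each Col-0 library after scaling.

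The members were then grouped by what their products do. In plastid and carbon metabolism, 8 of the 9 list genes were in a table and 7 were tested, of which 0 were higher (10.6% of all genes were) and 3 lower (8.7% of all) at an unadjusted p below 0.05, with a median log2 fold change of -0.20 (all genes 0.01). GAPB, a subunit of the glyceraldehyde-3-phosphate dehydrogenase of the Calvin cycle, had 5063 and 6289 counts in Col-0 plants against 4745 and 4789 in the mutant (-0.38 ± 0.10, edgeR adjusted p = 0.165). SAPX, the ascorbate peroxidase of the stroma, had -0.30 ± 0.09, and RPS1, the ribosomal protein S1 of plastids, had -0.24 ± 0.07. The cytosolic fructose-1,6-bisphosphatase FBP had -0.01 ± 0.08. The summed normalised counts of the 7 genes were 25104 and 26047 in Col-0 plants against 24297 and 22330 in the mutant. The green tissue markers RBCS1A, CAB1 and RCA had log2 fold changes of -0.48 to -0.12, none of them at 0, and sums of 264621 to 274517 in Col-0 and 213133 to 265792 in ndx1-4, so the sums overlapped. The part of green tissue in the plastid genes was not tested.

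In transcription and chromatin, 7 of 21 list genes were in a table and 5 were tested, with 1 higher (VIP1) and 0 lower at an unadjusted p below 0.05 and a median log2 fold change of 0.08. AN3, a coactivator of cell proliferation in leaves, had 2224 and 2369 counts in Col-0 plants against 2597 and 3402 in the mutant (0.23 ± 0.10, edgeR unadjusted p = 0.0716). KNAT1, a knotted-like homeobox regulator of the shoot meristem, had 0.06 ± 0.10, and PDF2, a homeodomain protein of the epidermis, had 0.08 ± 0.12. Among 3 cell wall genes, CSLC12, a cellulose synthase-like protein of the family that makes the xyloglucan backbone, had 660 and 700 counts in Col-0 plants against 1154 and 1047 in the mutant (0.56 ± 0.15, edgeR unadjusted p = 0.0135, adjusted p = 0.171), while XGD1 was at the low end as given above. XTH4, which cuts and joins xyloglucan, had -0.19 ± 0.12 with overlapping libraries. Of the 4 tested lipid, sterol and hormone enzymes, only AT5G33370 was below an unadjusted p of 0.05, and CAS1, the cycloartenol synthase at the entry to plant sterols, had -0.06 ± 0.10. Of the 3 tested genes of ubiquitin and protein turnover, CDR1 was below it. Neither of the 2 tested genes of DNA replication, division and cytoskeleton (RPA1A and WVD2) was below it. Nor was the ribosomal RP1 or the nucleoside transporter FUR1, each the only tested gene of its list. The MEKK kinase list had 1 gene in a table (MEKK3, 399 and 404 counts in Col-0) and none tested.

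Near-identical copies, sought only among annotated nuclear genes and in the organelle genomes, bear on 42 of the 215 members. Of these, 30 are in the chromosome 2 block and 12 have a copy on a nuclear chromosome. The 103 tested members without a copy had a median log2 fold change of 0.01, with 11 higher and 12 lower at an unadjusted p below 0.05. Of all genes tested, 10.6% were higher and 8.7% lower at that p. The 19 with a copy, of which 14 are the tested block members described above, had a median of 0.10. Of the 19, 3 were higher (AT2G07662, AT2G07706 and AT5G34871) and 0 lower. Their median count was 71.5, against 619.8 without a copy.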

How the data were processed

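The authors quantified reads with Salmon against Araport11 genes and transposable elements (coordinates in TAIR10), and compared groups with DESeq2. Each of the 4 deposited tables holds only features past the authors' threshold. The estimated counts that the authors deposited from Salmon are whole numbers without normalisation, and the FPKM values the authors deposited are scaled within each table and were compared within 1 table. The tables' fold change and p-value columns, which hold the authors' own comparisons, and 8 columns of seedling samples of another series were not used.

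Library scaling was recovered from the ratio of counts to FPKM, separately for genes and elements. Genes listed in both tissue tables whose mean reached 10 counts were fitted with edgeR 4.0.16 (quasi-likelihood, genotype only, R 4.3.3), with Benjamini-Hochberg adjustment over all of them. Fold changes of listed genes outside the tissue tables (HCS2 and AT2G05995) came from the same fit with the genotype list added, as a description. DESeq2 1.42.0, other scalings, filters, member definitions, a replicate block and the leaving out of each library were alternatives, as was leaving out the block that matches the mitochondrial genome, which was chosen after seeing the data. Fits were tested on simulated data. Near-identical copies (at least 95% identity over at least 50% of the exonic length) were sought with blastn in TAIR10.1, whose nuclear coordinates equal those of the tables for 13220 of 13220 genes. The search covered the exonic sequences of annotated nuclear genes and pseudogenes, and the organelle genomes. Nuclear sequence outside annotated exons was not searched, so a member without a copy can still match unannotated repeats. Sequences are credited to the RefSeq TAIR10.1 assembly. Named were the listed members and elements, the 5 highest and 5 lowest members of at least 50 counts without overlap, the 5 of highest FPKM and the function lists. Members of the function lists whose annotation names another role (NIA2, ERD5, GME and YAO) were left out of them. The members and lists were chosen with earlier results of these data known.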

Additional observations from a re-analysis of the deposited data

How the results depend on the processing

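With 2 libraries per genotype, counting error and replicate spread limit calls on members of low count. Calls in this section are at an adjusted p below 0.01. With the list genes added, the edgeR adjusted p was 0.031 for AT2G11405, 0.040 for VIP1, 0.044 for HCS2 and 0.047 for AT2G05995. The genes added there were chosen on these same libraries. The count of 0 members called by edgeR stayed at 0 with TMM or total-count scaling, other count filters, the list genes added, other member definitions and each library left out, with 3 exceptions: DESeq2 called 3, a fit with the replicate number as a block called 5 (NIA2, AT1G37130, with an adjusted p of 0.00954; VIP1, AT1G43700, 0.00881; PRK2A, AT2G07040, 0.00954; AT5G33370, 0.00765; AT5G34871, 0.00301), and windows widened by 0.5 Mb on each side held 2 called genes, both outside the original windows. The labels share replicate numbers but do not say that these pair the samples, and deviations of same-numbered libraries correlated at 0.455 over 7057 genes. With 2 libraries per genotype this is 1 correlation, which leaves unsettled whether the numbers pair the samples. The count of 26 members at an unadjusted p below 0.05 became 47 in the widened windows and ranged from 12 to 28 with a library left out. The median log2 fold change of the members became -0.00067 with TMM and -0.025 with total counts, where all genes moved alike to -0.0066 and -0.033, and ranged from 0.0037 to 0.046 with a library left out. The 7 listed members became 13 in the widened windows and 4 when a 2-fold change was also asked for. Of 395 alternatives for 36 named members, 375 kept direction and call and 7 gained a call (DESeq2 or the block). The direction turned in 13, all with a library left out and in 9 genes whose main log2 fold change was at most 0.08: ranges were -0.11 to 0.067 for PSBQ-2 (AT4G05180), -0.070 to 0.026 for RP1 (AT1G43170), -0.13 to 0.037 for UBQ10 (AT4G05320), -0.061 to 0.050 for FBP (AT1G43670), -0.070 to 0.22 for PDF2 (AT4G04890), -0.68 to 0.36 for MYB74 (AT4G05100), -0.060 to 0.18 for KNAT1 (AT4G08150), -0.22 to 0.11 for RPA1A (AT2G06510) and -0.18 to 0.041 for CAS1 (AT2G07050). A fit without 1 library takes the lone library of that genotype to vary like the others. The causes were not tested.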

Other observations

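A few small secreted proteins of reproductive tissue were members too, grouped here by annotation after their values were seen. LCR33, a cysteine-rich peptide, had 32 and 63 counts in Col-0 plants against 17 and 38 in the mutant (log2 fold change -0.92 ± 0.44). The defensin-like gene AT2G12475 had 22 and 30 counts in Col-0 plants against 12 and 20 in the mutant (-0.84 ± 0.35), and SCRL16 had 22 and 55 counts in Col-0 plants against 18 and 47 in the mutant (-0.38 ± 0.55). AT2G06090, of the family of self-incompatibility protein S1, had 28 and 28 counts in Col-0 plants against 8 and 18 in the mutant (-1.26 ± 0.42, edgeR adjusted p = 0.217). By contrast AT4G08025, of the ECA1 gametogenesis family, had 46 and 54 counts in Col-0 plants against 107 and 84 in the mutant (0.81 ± 0.29, edgeR adjusted p = 0.235). None passed the adjusted threshold in edgeR, and at such counts the replicates of a genotype differed widely in LCR33 and SCRL16.

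The 5 tested noncoding RNA members were all above 0 (4151 of all 7981 genes tested were), with a median log2 fold change of 0.43. Of the 5, 2 were below an unadjusted p of 0.05 in edgeR (19.3% of all genes were). AT2G06002 had 0.22 ± 0.69, AT3G06095 had 0.43 ± 0.40 and AT2G05215 had 0.40 ± 0.21 (SE). As given above, AT3G06355 overlaps an rRNA gene and AT5G34871 shares its sequence with AT3TE60870, and AT2G05215 is in the mitochondrial block. The sixth noncoding member with values in both genotypes, AT2G05995, was lower. ATA1, a dehydrogenase of the tapetum, had 259 and 351 counts in Col-0 plants against 361 and 409 in the mutant (0.20 ± 0.13), beside 4 tapetum markers with log2 fold changes of -0.25 to 0.79.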
